A study of Mus musculus with 11 samples.

Results

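The genes examined were 10 markers of the neuronal cytoskeleton and of the synapse, Tubb3, Map2, Stmn2, Dcx, Nefl, Nefm, Elavl3, Elavl4, Syt1 and Snap25. They were taken by gene name from the 2 deposited tables of RNA-seq counts, and all 10 were found among the 34570 genes that the tables list together. Poly(A)+ RNA was sequenced from wild type (WT) and Atxn7l3-/- mouse embryonic stem cells (mESCs) and from WT and Atxn7l3-/- mouse embryonic fibroblasts (MEFs). ATXN7L3 is an adaptor protein of the deubiquitylation modules that remove ubiquitin from histone H2B, and the comparisons ask how the RNA of each gene differs when it is lost. There were 2 WT and 3 Atxn7l3-/- mESC libraries and 3 WT and 3 Atxn7l3-/- MEF libraries, 11 in all. The strain given for the cells is DBA/2 x C57BL/6. The null allele is constitutive, so no promoter or Cre limits it to a cell type. Each mESC line came from its own blastocyst, so a library stands for 1 line, and the lines were grown with LIF and 2 kinase inhibitors that hold them in a naive state. Each MEF culture came from the trunk of 1 embryo at E10.5, with the head and gut removed, and therefore can hold cells of the spinal cord, the sensory and sympathetic ganglia, the muscle and the body wall beside fibroblasts. The study excluded 1 WT mESC dataset, which was not analysed here.

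A neuron's shape rests on microtubules and neurofilaments. TUBB3 is a tubulin isoform of neurons, MAP2 binds microtubules in dendrites, STMN2 destabilizes microtubules in growth cones, and DCX binds microtubules in migrating young neurons. NEFL and NEFM are the light and medium subunits of neurofilaments, which fill axons. ELAVL3 and ELAVL4 are RNA-binding proteins of newly formed neurons that bind AU-rich stretches of messages. SYT1 is the calcium sensor of synaptic vesicles, and SNAP25 is a plasma membrane SNARE that takes part in vesicle fusion. In most cells without a neuronal fate, many such genes are held low by the repressor REST.

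On the genome (mm10), Tubb3 (ENSMUSG00000062380) is at chr8:123411424-123422015, Map2 (ENSMUSG00000015222) at chr1:66175273-66442583, Stmn2 (ENSMUSG00000027500) at chr3:8509360-8561606 and Dcx (ENSMUSG00000031285) at chrX:143855842-143933311. Nefl (ENSMUSG00000022055, chr14:68083863-68089095) and Nefm (ENSMUSG00000022054, chr14:68082590-68124846) are neighbours on opposite strands. Elavl3 (ENSMUSG00000003410) is at chr9:22015005-22052023, Elavl4 (ENSMUSG00000028546) at chr4:110203722-110351909, Syt1 (ENSMUSG00000035864) at chr10:108497650-109010982 and Snap25 (ENSMUSG00000027273) at chr2:136713453-136782428.

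Promoter sequences were available in RefSeq for 6 of the 10 genes, and those of Map2, Tubb3 and Dcx are shown because these microtubule genes carry results below, Tubb3 in mESCs and Map2 and Dcx in MEFs. Each run holds the 250 bases before the first start site that RefSeq gives, 5′ to 3′ on the gene's own strand, in the GRCm38.p6 build. For these genes that site lies inside the gene bounds printed above, so each window overlaps them in part. The capitals mark GGGCGG (GC box), CCAAT and TATAAA on either strand, and no match overlaps another. The Map2 window lies at chr1:66175079-66175328 on the plus strand, that of Tubb3 at chr8:123411303-123411552 on the plus strand and that of Dcx at chrX:143933220-143933469 on the minus strand.
Map2: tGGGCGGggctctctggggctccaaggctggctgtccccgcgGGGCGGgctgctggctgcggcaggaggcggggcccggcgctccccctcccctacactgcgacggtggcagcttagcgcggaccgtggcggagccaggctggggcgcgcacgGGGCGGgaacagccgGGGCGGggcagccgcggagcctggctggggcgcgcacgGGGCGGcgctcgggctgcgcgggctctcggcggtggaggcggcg
Tubb3: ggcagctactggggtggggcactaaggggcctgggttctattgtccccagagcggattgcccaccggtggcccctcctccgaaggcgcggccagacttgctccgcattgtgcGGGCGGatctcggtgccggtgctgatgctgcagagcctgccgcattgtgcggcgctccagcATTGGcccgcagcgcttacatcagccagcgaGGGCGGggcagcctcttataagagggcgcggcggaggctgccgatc
Dcx: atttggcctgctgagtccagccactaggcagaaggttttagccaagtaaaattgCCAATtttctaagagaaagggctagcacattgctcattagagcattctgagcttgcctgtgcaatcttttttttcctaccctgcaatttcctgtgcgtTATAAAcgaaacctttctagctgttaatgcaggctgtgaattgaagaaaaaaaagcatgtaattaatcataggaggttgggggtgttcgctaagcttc
The Map2 window was 81.2% G and C and held 5 GC boxes, the Tubb3 window was 68% G and C with 2 GC boxes and 1 CCAAT, and the Dcx window was 41.6% G and C with 1 CCAAT, 1 TATAAA and no GC box. Over all 32851 promoter windows of this length the median was 52.4% G and C, and 32.7% held a GC box, 33.8% a CCAAT and 12.4% a TATAAA. The windows of Elavl3, Elavl4 and Syt1 were also in the table, and Stmn2, Nefl, Nefm and Snap25 had none.

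The libraries held between 34515342 and 49602605 counts, and levels are given as CPM, counts per 1e+06 counts of the library, scaled by TMM over the 11 libraries. A floor of 3 counts in a library corresponded to between 0.0571 and 0.0937 CPM, which covers counting error only. The defining markers fitted the labelled cell types. The stem cell gene Pou5f1 lay between 803 and 1170 CPM in the mESC libraries and at 0 counts in every MEF library, and the collagen gene Col1a1 lay between 2443 and 14218 CPM in the MEF libraries. Atxn7l3 itself lay at 196 and 202 CPM in WT mESCs and between 0.831 and 3.33 CPM in Atxn7l3-/- mESCs. In MEFs it lay between 86.4 and 117 CPM in the WT libraries and between 55.4 and 73.3 CPM in the libraries labelled Atxn7l3-/-, a difference of −0.74 on the log2 scale that edgeR did not call (adjusted p = 0.0715). Leaving out either WT mESC library also ended the call of Atxn7l3 in mESCs (edgeR adjusted p = 0.1375 and 0.06586). The study genotyped each embryo from its yolk sac. The counts here do not check the genotype label in MEFs, and every direction below rests on that label there. Libraries also differed in sex. WT MEF replicate 3 had 336 CPM of the X-inactivation RNA Xist and 0.244 CPM of the Y-linked Ddx3y, where the other 5 MEF libraries had 66.3 CPM or more of Ddx3y, and Atxn7l3-/- mESC replicates 1 and 2 had 2.95 and 0.791 CPM of Ddx3y against at least 80.3 CPM in the other 3 mESC libraries. The fibroblast genes of WT MEF replicate 2 summed to 50890 CPM against 10591 and 21373 CPM in replicates 1 and 3, so this library stood apart.

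In WT mESCs the neuronal markers were not uniformly low, and the order of the genes was different in the 2 WT cell types. Levels per kb use the median length of a gene's annotated transcripts, 1419.5 bases for Map2, and the order of genes depends on that length. Which transcripts were expressed was not examined. On this scale Stmn2 had the highest mean level in WT mESCs, at 122 CPM per kb. It was followed by Nefm at 28.1, Nefl at 24.7 and Tubb3 at 23.6 CPM per kb. These last 3 genes are neighbours in the order that the spread between the libraries does not separate. The other 6 genes had means of 0.955 CPM per kb (Map2) or less. In WT MEFs Map2 had the highest mean on this scale, 68.0 CPM per kb, followed by Tubb3 at 49.5 and Stmn2 at 30.7 CPM per kb. These are again neighbours that their spread does not separate, since Tubb3 alone ran from 27.6 to 132 CPM over the 3 WT MEF libraries. Nefm (2.81), Syt1 (2.74), Nefl (1.70) and Dcx (0.820) followed in CPM per kb, and Elavl4, Snap25 and Elavl3 stayed under 0.1 CPM per kb.

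**Figure D1:**
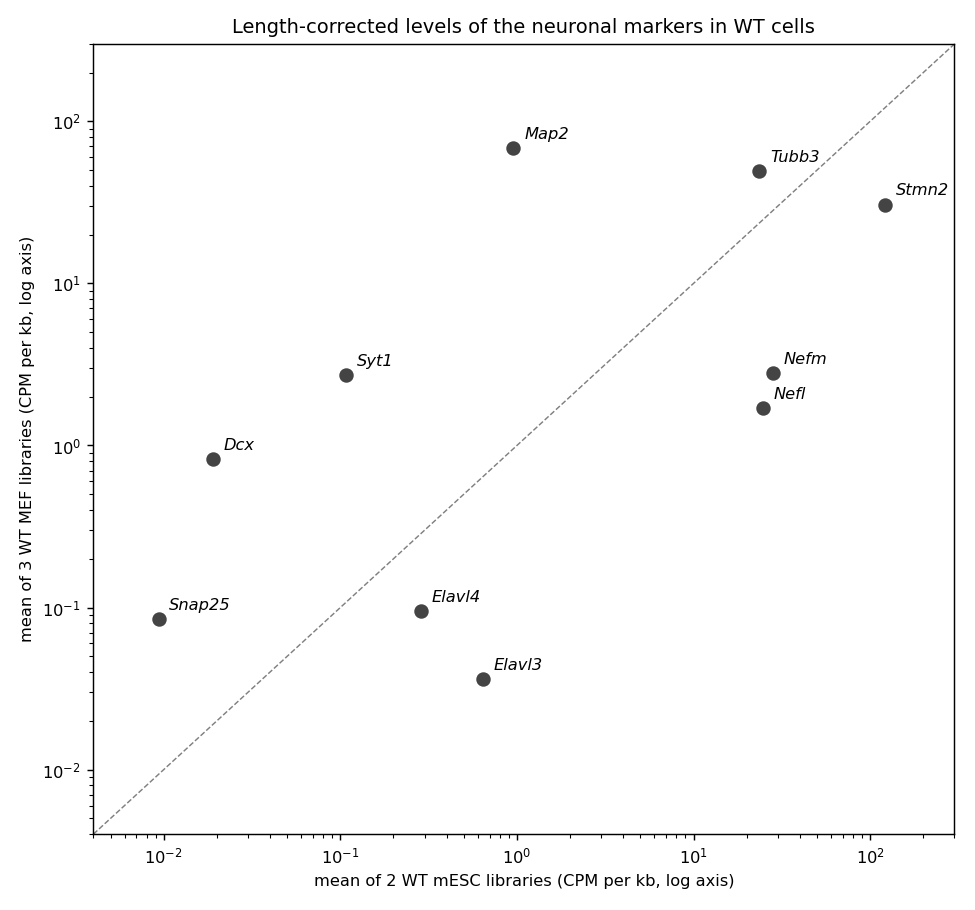
Each point is 1 of the 10 genes, placed by its mean length-corrected level (CPM per kb, log axes) in the 2 WT mESC libraries and the 3 WT MEF libraries, and the dashed line marks equal levels. Map2, Dcx, Syt1 and Snap25 lie far above the line, Tubb3 lies just above it, and Stmn2, Nefl, Nefm, Elavl3 and Elavl4 lie below it.

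WT MEFs and WT mESCs were compared in 1 fit of all 11 libraries by the quasi-likelihood test in edgeR, which tested 20063 genes, over which Benjamini-Hochberg adjustment was made. Genes with an adjusted p up to 0.05 were called. Of the 9 markers tested, 3 were higher and 4 were lower in WT MEFs, where 27.0% of all genes were called higher and 28.5% lower. Map2 lay at 0.780 and 1.93 CPM in WT mESCs and at 67.5, 129 and 93.3 CPM in WT MEFs. The groups did not overlap, and the difference was 6.15 ± 0.62 (SE) on the log2 scale (adjusted p = 3.467e-05). Dcx was at 2 and 4 counts in the WT mESC libraries and at 4.96, 0.968 and 1.83 CPM in WT MEFs, higher by 5.37 ± 0.99 (adjusted p = 0.00198). Syt1 was at 0.609 and 0.103 CPM in WT mESCs and at 18.0, 4.25 and 4.78 CPM in WT MEFs, higher by 4.65 ± 1.51 (adjusted p = 0.0232). These 3 genes were the ones called higher in the trunk-derived cultures. Nefl, Nefm, Stmn2 and Elavl3 were called lower there, so the microtubule genes went both ways. DESeq2 gave no p-value for Nefm here and called the other 6. Nefl lay at 87.2 and 79.8 CPM in WT mESCs and at 3.07, 1.31 and 12.8 CPM in WT MEFs, lower in MEFs by −3.86 ± 0.76 (adjusted p = 0.00175). Nefm lay at 108 and 88.8 CPM in WT mESCs and at 6.51, 4.97 and 18.0 CPM in WT MEFs, a difference of −3.32 ± 1.09 (adjusted p = 0.0243). Stmn2 lay at 122 and 208 CPM in WT mESCs and at 43.1, 17.9 and 63.9 CPM in WT MEFs, a difference of −1.99 ± 0.55 (adjusted p = 0.0109). Elavl3, at 1.41 and 2.49 CPM in WT mESCs and at 15, 0 and 1 counts in the WT MEF libraries, was lower in MEFs by −4.02 ± 1.26 (adjusted p = 0.0192). Tubb3 (1.07 ± 1.17, adjusted p = 0.454) and Elavl4 (−1.58 ± 0.68, adjusted p = 0.0691) were not called, and Snap25, at 1 count in each WT mESC library and at 20, 2 and 3 counts in the WT MEF libraries, was too low to be tested. The calls of Map2, Dcx and Nefl held when any 1 library was left out. Those of Stmn2 (adjusted p = 0.1005), Elavl3 (0.0874), Nefm (0.06585) and Syt1 (0.1493) were lost without WT mESC replicate 2. That of Elavl3 was also lost without WT MEF replicate 3 (0.05925), which added a call of Elavl4 (−2.28, adjusted p = 0.02623). Those of Nefm and Syt1 were also lost without WT mESC replicate 1 (0.08128 and 0.0533) or WT MEF replicate 1 (0.06502 and 0.05483), and that of Nefm without WT MEF replicate 2 (0.06255).

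**Figure D2:**
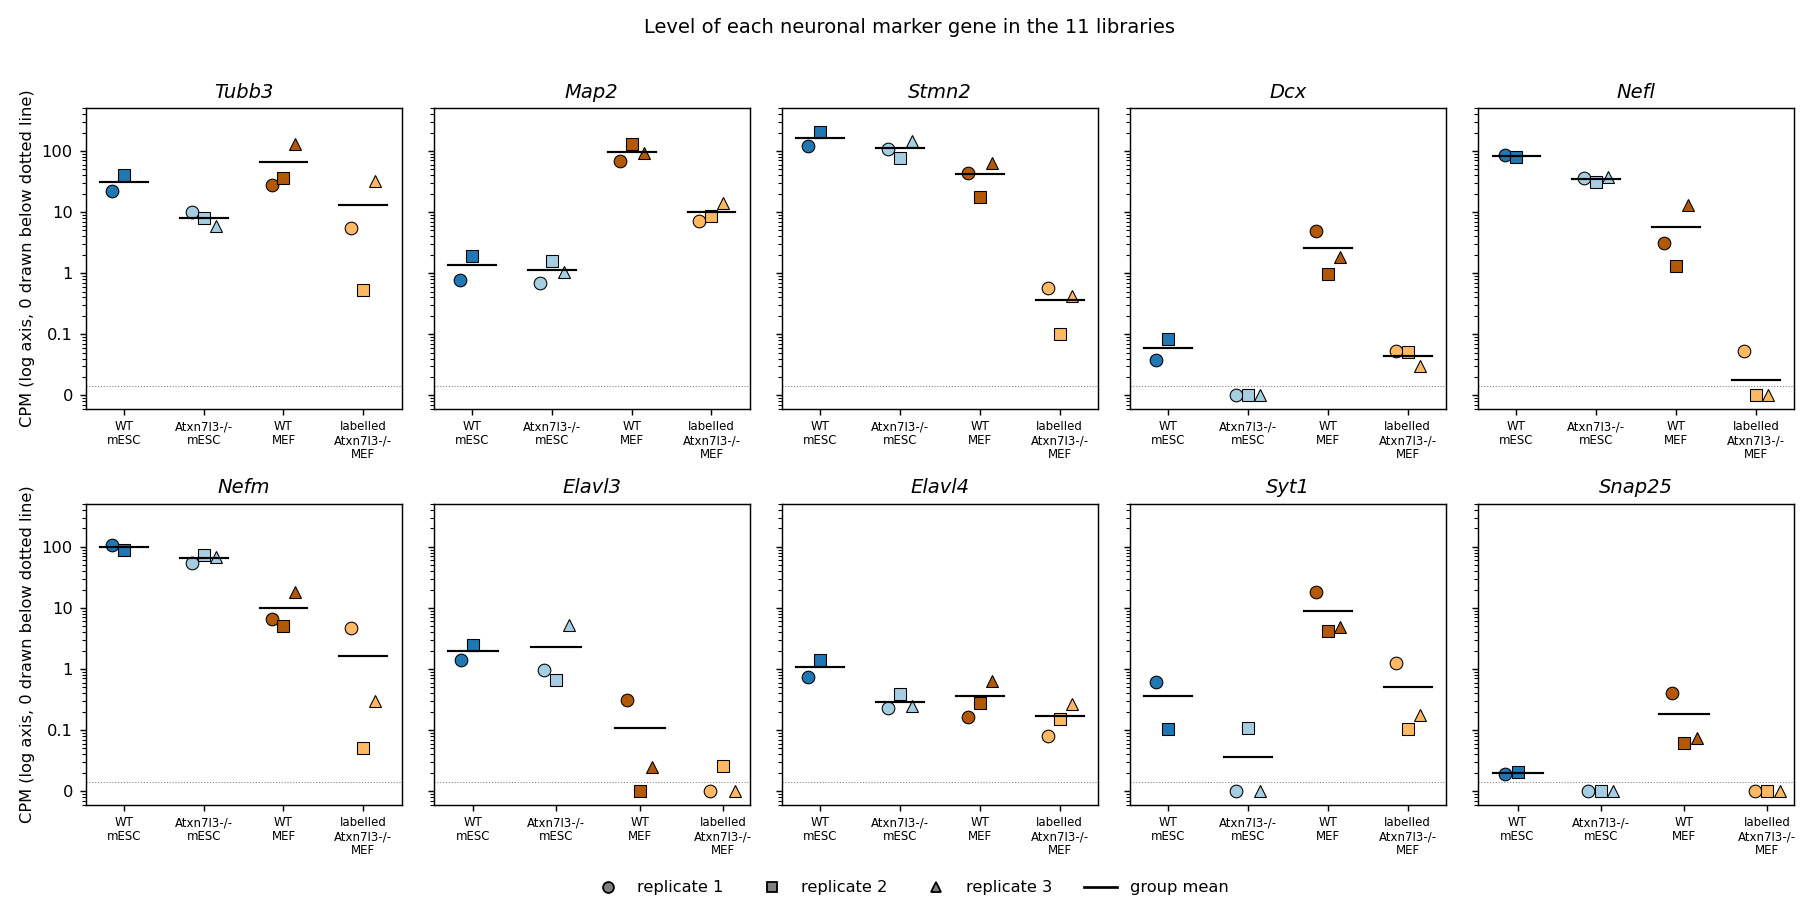
Each panel shows 1 gene, with its level in CPM (log axis, libraries at 0 drawn below the dotted line) in the 11 libraries by group, symbols giving the replicate and bars the group mean. Map2, Stmn2, Dcx, Nefl, Nefm, Syt1 and Snap25 are lower in all 3 MEF libraries labelled Atxn7l3-/- than in all 3 WT MEF libraries. For Nefm the nearest libraries of these groups lie close (4.62 and 4.97 CPM), and Snap25 has few counts. In mESCs Tubb3, Nefl, Nefm and Elavl4 separate.

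In mESCs, Tubb3 and Nefl were lower in the Atxn7l3-/- lines, and no marker was higher. The separate fit of the 5 mESC libraries tested 17800 genes, of which 3.88% were called lower and 3.08% higher by edgeR. It tested 7 of the 10 markers, called 2 lower and 0 higher, and left Dcx, Syt1 and Snap25 out for low counts. Of the 7, 4 had an unadjusted p under 0.05, all lower. In either direction 5309 of all 17800 genes tested had such a p. DESeq2 called the same 2 markers, where it called 9.65% of all genes lower and 10.0% higher. The median log2 fold change of the 7 was −0.54, against 0.04 over all genes tested. In 6 of the 10 genes every Atxn7l3-/- library lay below both WT libraries, 2 of these 6 (Dcx and Snap25) with 4 counts or fewer in each library, and over all genes tested 26.7% were separated in this direction.

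Tubb3 lay at 21.8 and 40.4 CPM in the WT lines and at 9.97, 8.14 and 5.88 CPM in the Atxn7l3-/- lines. All 3 Atxn7l3-/- lines were below both WT lines, with a mean of 8.0 ± 2.05 CPM (SD, n = 3) against 31.1 ± 13.1 CPM (SD, n = 2). The fold change was −1.91 ± 0.35 (SE) on the log2 scale (edgeR adjusted p = 0.0307). Nefl was the more even of the pair. It lay at 87.2 and 79.8 CPM in the WT lines and at 36.0, 31.6 and 38.1 CPM in the Atxn7l3-/- lines, lower by −1.19 ± 0.20 (edgeR adjusted p = 0.0250). Its partner subunit Nefm lay at 108 and 88.8 CPM against 55.0, 73.7 and 68.8 CPM, and the groups did not overlap, but the change of −0.54 ± 0.20 did not pass (edgeR adjusted p = 0.131). Nefl lies wholly within the bounds of Nefm on the opposite strand of chromosome 14, and 1108 of its 3380 exonic bases are also exonic in Nefm. The library kit keeps strand, but whether the counting used it is not given in the sources used here, so reads from that stretch cannot be assigned to 1 of the genes with certainty. Leaving out WT replicate 1, WT replicate 2 or Atxn7l3-/- replicate 1 ended both calls, with changes of −2.28, −1.42 and −2.10 for Tubb3 (adjusted p = 0.1375, 0.2272 and 0.08389) and of −1.12, −1.27 and −1.21 for Nefl (0.1865, 0.1615 and 0.08406). Without either WT library that arm is 1 library, the spread comes from the Atxn7l3-/- lines alone, and the lone library is assumed to vary like them. In 1 fit of all 11 libraries, where the spread is shared between the cell types, neither Tubb3 nor Nefl was called in mESCs (edgeR adjusted p = 0.3375 and 0.339). In the lines with Y-linked counts alone, a selection made after seeing the data that leaves both WT lines and 1 Atxn7l3-/- library, the fold changes were −2.32 for Tubb3 and −1.05 for Nefl, given as values only.

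The other cytoskeletal markers were not called in mESCs. Stmn2, the most abundant of the 10, lay at 122 and 208 CPM in the WT lines and at 107, 78.1 and 147 CPM in the Atxn7l3-/- lines, which overlap, and its change was −0.52 ± 0.33 (edgeR adjusted p = 0.322). Map2 was near 1 CPM in every line, at 0.780 and 1.93 CPM in WT and 0.692, 1.58 and 1.06 CPM in Atxn7l3-/- (log2 fold change −0.24 ± 0.59, edgeR adjusted p = 0.815). Dcx had 2 and 4 counts in the WT libraries and 0 in each Atxn7l3-/- library, which is at the floor on both sides, so no fold is given.

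The RNA-binding pair was low in mESCs and its members differed. Elavl4 lay at 0.742 and 1.42 CPM in the WT lines and at 0.231, 0.385 and 0.247 CPM in the Atxn7l3-/- lines, with no overlap, and its change of −1.85 ± 0.54 did not pass (edgeR adjusted p = 0.0760). Elavl3 lay at 1.41 and 2.49 CPM in WT and at 0.949, 0.663 and 5.23 CPM in Atxn7l3-/-, where replicate 3 was above both WT lines and the other 2 below them. Its fold change of 0.30 ± 0.90 (edgeR adjusted p = 0.849) turned to −1.23 without that replicate. The synaptic pair was barely detected. Syt1 had 32 and 5 counts in the WT libraries and 0, 5 and 0 counts in the Atxn7l3-/- libraries, and Snap25 had 1 count in each WT library and 0 in the others.

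In MEFs the fitted changes of all 8 markers tested were toward lower levels in the libraries labelled Atxn7l3-/-. Map2, Stmn2, Dcx and Nefl passed the test, and there Stmn2 was under 1 CPM and Dcx and Nefl were at 2 counts or fewer. The separate fit of the 6 MEF libraries tested 15958 genes, of which 4.39% were called lower and 5.01% higher. It tested 8 of the 10 markers and called 4 lower and 0 higher (5 had an unadjusted p under 0.05, and DESeq2 called 5 lower and 0 higher), and Elavl3 and Snap25 were left out for low counts. In 7 of the 10 genes every library labelled Atxn7l3-/- lay below every WT library, and 19.7% of all genes tested were separated in this direction. Several of the 8 reached the test through the WT libraries, where they are high, so nothing is read from their number: the 3 libraries labelled Atxn7l3-/- held 5 counts of Dcx in all, 2 of Nefl, 40 of Stmn2, 58 of Syt1 and 187 of Nefm, 175 of the last in replicate 1.

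Map2 lay at 67.5, 129 and 93.3 CPM in WT MEFs and at 7.19, 8.71 and 13.8 CPM in the libraries labelled Atxn7l3-/-. The means were 96.5 ± 30.7 and 9.91 ± 3.48 CPM (SD, n = 3 each), so the second group kept 10.3% of the first. Its log2 fold change was −3.28 ± 0.38 (edgeR adjusted p = 0.0101). Stmn2 fell from 43.1, 17.9 and 63.9 CPM in WT MEFs to 0.581, 0.102 and 0.419 CPM, a 113-fold difference of the means and a log2 fold change of −6.83 ± 0.81 (edgeR adjusted p = 0.0109). Both genes passed when any 1 library was left out, with adjusted p-values of at most 0.0446. Map2 was thus the marker that stayed clearly detected in every MEF library and still fell, whereas Stmn2 was left with 22, 4 and 14 counts.

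Dcx, which is on the X chromosome, had 244, 31 and 75 counts in the WT MEF libraries and 2, 2 and 1 counts in those labelled Atxn7l3-/-. The ratio of the summed counts, scaled by library size, was 63.3, with a 95% counting interval of 26.9 to 196, and 32.1 (13.3 to 101) without WT replicate 1. The log2 fold change fitted by edgeR was −5.78 ± 0.87 (adjusted p = 0.0177), a value that depends on the prior count. It did not pass without WT replicate 3 (adjusted p = 0.05176), the library with Xist, or without replicate 1 or 2 of the libraries labelled Atxn7l3-/- (0.06933 and 0.07075). Nefl had 151, 42 and 526 counts in the WT MEF libraries and 2, 0 and 0 counts in the others. That is a ratio of 325, with a 95% counting interval of 89.7 to 2689, and a fitted change of −8.09 ± 1.45 (edgeR adjusted p = 0.0259). Without WT replicate 3, which held 526 of the 719 WT counts, the ratio was 131 (35.9 to 1092). Its call was lost without WT replicate 1 (0.05456), WT replicate 3 (0.05985), or replicate 1 (0.07511) or 2 (0.08881) of the libraries labelled Atxn7l3-/-. Without WT replicate 2, the library that stood apart, the 4 calls were the same.

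Tubb3 and Nefm varied widely among the libraries labelled Atxn7l3-/- and were not called. Tubb3 lay at 27.6, 36.3 and 132 CPM in WT MEFs and at 5.55, 0.536 and 32.8 CPM in the libraries labelled Atxn7l3-/-, so that replicate 3 of the second group lay within the WT range, and the change of −2.32 ± 1.31 did not pass (edgeR adjusted p = 0.258). Nefm lay at 6.51, 4.97 and 18.0 CPM in WT and at 4.62, 0.0511 and 0.299 CPM in the others. Replicate 1 of the libraries labelled Atxn7l3-/- lay just below the lowest WT library, while the other 2 were far below it, and the change of −2.60 ± 1.41 did not pass (edgeR adjusted p = 0.241). Nefl, the neighbour with which it shares exonic bases, had 2 counts in that same replicate.

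Of the synaptic pair, Syt1 was not called in the main test and Snap25 was too low to be tested. Syt1 lay at 18.0, 4.25 and 4.78 CPM in WT MEFs and at 1.27, 0.102 and 0.180 CPM in the libraries labelled Atxn7l3-/-, with no overlap. Its change of −4.16 ± 1.15 did not pass (edgeR adjusted p = 0.0655). The labels number MEF replicates within each group and do not state a pairing. In an alternative fit with the number as a block Syt1 did pass, at −4.55 ± 0.49 (edgeR adjusted p = 0.01565). That fit called 5 of the 8 lower, where it called 8.49% of all genes lower and 5.5% higher. Snap25 had 20, 2 and 3 counts in the WT libraries and 0 in each library labelled Atxn7l3-/-, at least 2.21-fold lower when the latter are set at 3 counts each. That bound rests on WT replicate 1, and without it both groups are at or under the floor and no fold is given. The RNA-binding pair was near the floor in MEFs. Elavl4 had 8, 9 and 26 counts in WT and 3, 6 and 9 counts in the others, which overlap (log2 fold change −1.10 ± 0.71, edgeR adjusted p = 0.317), and Elavl3 had 15, 0 and 1 counts against 0, 1 and 0 counts, which overlap too. The ratio of Elavl3, 14.5 with a 95% counting interval of 2.25 to 607, rests on WT replicate 1 and is 1.51 without it (0.0193 to 119). In such bulk samples, fewer cells that hold these RNAs and less of the RNAs in each such cell cannot be told apart. Which cells of a culture held them was not tested.

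**Figure D3:**
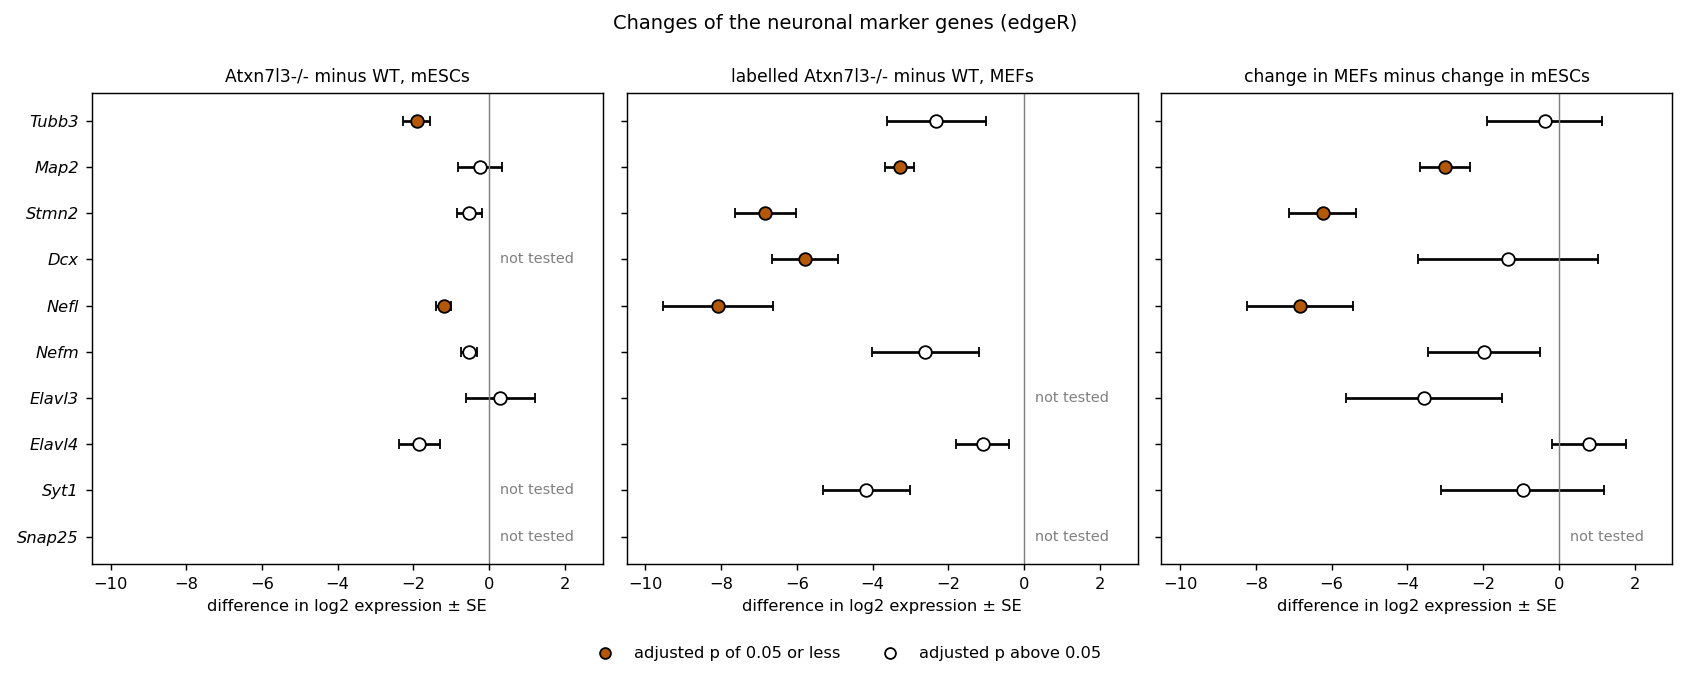
For each gene, the point is the log2 difference fitted by edgeR and the bar its SE, for Atxn7l3-/- minus WT in mESCs, the same in MEFs, and the MEF change minus the mESC change, with filled points where the adjusted p was 0.05 or less. In MEFs all 8 points lie left of 0, from −1.10 for Elavl4 to −8.09 for Nefl, and in mESCs only Tubb3 and Nefl are filled.

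Whether the change in MEFs differed from that in mESCs was tested as an interaction term in the fit of all 11 libraries, in which 4.83% of all genes had a lower and 5.68% a higher value in MEFs. Of the 9 markers tested, Map2, Stmn2 and Nefl changed more steeply downward in MEFs and none the other way. The difference between the changes was −3.00 ± 0.66 (SE) on the log2 scale for Map2 (edgeR adjusted p = 0.0220), −6.24 ± 0.88 for Stmn2 (0.00467) and −6.85 ± 1.402 for Nefl (0.0178). That of Stmn2 passed when any 1 library was left out, that of Map2 was lost without WT mESC replicate 1 (0.1096), and that of Nefl without WT mESC replicate 1 (0.08882) or 2 (0.09003). Nefm, at −1.98 ± 1.48 (edgeR adjusted p = 0.402), was called only without replicate 1 of the MEF libraries labelled Atxn7l3-/- (−5.25, adjusted p = 0.01706). For Tubb3, called in mESCs and not in MEFs, the difference was −0.38 ± 1.52 (edgeR adjusted p = 0.922), so the 2 changes were not shown to differ. The same holds for Dcx (−1.36 ± 2.38), Syt1 (−0.95 ± 2.15), Elavl3 (−3.56 ± 2.07) and Elavl4 (0.79 ± 0.97), with edgeR adjusted p-values from 0.276 to 0.824.

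The markers did not share 1 pattern among the replicates of a group. In WT MEFs, Tubb3, Stmn2, Nefl, Nefm and Elavl4 were highest in replicate 3, Dcx, Elavl3, Syt1 and Snap25 in replicate 1, and Map2 in replicate 2. In the libraries labelled Atxn7l3-/-, the small remaining levels were highest in replicate 1 for 5 genes (Stmn2, Dcx, Nefl, Nefm and Syt1) and in replicate 3 for 3 (Tubb3, Map2 and Elavl4). Replicate 2 of that group had the lowest sum of the 10 genes, 9.73 CPM, against 19.4 and 47.8 CPM in replicates 1 and 3 and 172 to 328 CPM in the WT MEF libraries. Of the Atxn7l3-/- mESC libraries, replicate 2 again had the lowest sum, 194 CPM, against 210 and 266 CPM in the others and 343 and 423 CPM in the WT mESCs.

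The genes whose log2 levels over the 11 libraries were most like the mean of the 9 tested markers were Ngfr (Pearson r = 0.9798), Syndig1 (0.971), Efhd1 (0.956), Gal3st1 (0.952) and Wscd2 (0.9501). These values describe likeness over libraries that fall into the same 4 groups, and carry no test. Ngfr, a neurotrophin receptor of neural crest derivatives, lay between 9.93 and 96.5 CPM in WT MEFs, and at 0.748 CPM or less in the libraries labelled Atxn7l3-/-. It lay at 37.6 and 32.0 CPM in WT mESCs and between 5.93 and 8.64 CPM in the Atxn7l3-/- lines. Over the 6 MEF libraries alone the most alike genes were Vash1, Dtx1, Pcdhga8, Repin1 and Trim41, with r from 0.996 to 0.999. Of the markers themselves, Stmn2 came closest to the mean over the 11 libraries (r = 0.911) and Map2 least close (r = 0.064), being low in mESCs of both genotypes and high in WT MEFs.

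Beyond the 10 markers, 100 other neuronal genes were counted, in lists of the cytoskeleton, the synapse, RNA-binding proteins and neurogenic transcription factors. In mESCs 79 were tested by edgeR, 1 was higher and 4 were lower, where 3.08% of all genes were called higher and 3.88% lower. In MEFs 73 were tested, 1 was higher and 8 were lower, where 5.01% of all genes were called higher and 4.39% lower. The median log2 fold change over all genes tested was 0.04 in mESCs and −0.06 in MEFs. Some listed genes, such as Gria2 and Nlgn3, reached the MEF test through the WT libraries, where they are high. Nothing is therefore read from the MEF medians of the lists below. Of 24 other cytoskeletal genes, 22 were tested in mESCs with a median log2 fold change of −0.37. Mapt, which encodes tau, was higher there, at 137, 112 and 117 CPM in the Atxn7l3-/- lines against 42.8 and 31.0 CPM (1.77 ± 0.24, edgeR adjusted p = 0.0211). Nefh, the heavy neurofilament subunit, was lower, at 19.9, 27.5 and 17.3 CPM against 50.6 and 67.1 CPM (−1.403 ± 0.25, edgeR adjusted p = 0.0287), as was Map1a (−1.25 ± 0.29, edgeR adjusted p = 0.0454). In MEFs 21 of these 24 were tested, with a median of −0.90, and Gap43, a growth cone protein, was lower, at 2.30, 1.48 and 1.53 CPM against 9.42, 11.9 and 26.3 CPM (−3.17 ± 0.51, edgeR adjusted p = 0.0207). Dclk1, a relative of Dcx, was lower as well (−2.95 ± 0.53, edgeR adjusted p = 0.0265).

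Of 40 other synaptic genes, 32 were tested in mESCs (median 0.37, 12 with an unadjusted p under 0.05). By edgeR 2 were lower and 0 higher, while DESeq2 called 4 lower and 6 higher, where it called 9.65% of all genes lower and 10.0% higher. The 2 were the vesicle proteins Syt4 (−4.06 ± 0.56, edgeR adjusted p = 0.0211) and Syt2 (−3.58 ± 0.54, edgeR adjusted p = 0.0224). In the Atxn7l3-/- lines Syt4 lay near the floor, at 0.0513, 0.107 and 0.0898 CPM. In MEFs 35 were tested (median −1.42, 21 with an unadjusted p under 0.05) and 5 were lower. Over all genes tested by edgeR, 5166 of 15958 in MEFs and 5309 of 17800 in mESCs had an unadjusted p under 0.05. Of the 5 synaptic genes lower in MEFs, the largest fitted changes were those of the glutamate receptor subunit Gria2 (−5.00 ± 0.96), the synaptotagmin Syt5 (−4.35 ± 0.60) and the presynaptic adhesion protein Nrxn2 (−4.20 ± 0.95), with edgeR adjusted p-values of 0.0307, 0.0147 and 0.0436. In the libraries labelled Atxn7l3-/-, Gria2 lay at 0.0299 CPM or less and Syt5 at 0.0793 CPM or less, at or under the floor of 3 counts. Nrxn2 lay at 0.370 CPM or less there. Fitted changes of genes so low depend on the prior count. The vesicle protein gene Sv2a went the other way, at 87.6, 55.7 and 63.0 CPM in the libraries labelled Atxn7l3-/- against 6.59, 4.53 and 3.54 CPM in WT (3.79 ± 0.34, edgeR adjusted p = 0.00620). With the replicate number as a block, 3 of these synaptic genes were higher and 15 lower in MEFs, and 5 of the other cytoskeletal genes were lower, in the fit that calls 5.5% of all genes higher and 8.49% lower. DESeq2, which called 1723 of 15853 genes higher and 2213 lower in MEFs, called 2 synaptic genes higher and 18 lower. Of 11 other neuronal RNA-binding genes, 9 were tested in mESCs with no call by edgeR (median 0.02, 2 with an unadjusted p under 0.05, 1 called by DESeq2). In MEFs 8 were tested (median −0.84, 6 with an unadjusted p under 0.05), and Celf5 was lower (−2.95 ± 0.63, edgeR adjusted p = 0.0392). There 2 were lower with the block, while DESeq2 called 3 lower and 2 higher. The 25 neurogenic factors, of which 23 are in the tables, had no call by edgeR in the 16 tested in mESCs (median 0.49, 3 with an unadjusted p under 0.05, 1 called by DESeq2) or the 9 tested in MEFs (median −0.88, 2 with an unadjusted p under 0.05, 0 called by DESeq2).

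**Figure D4:**
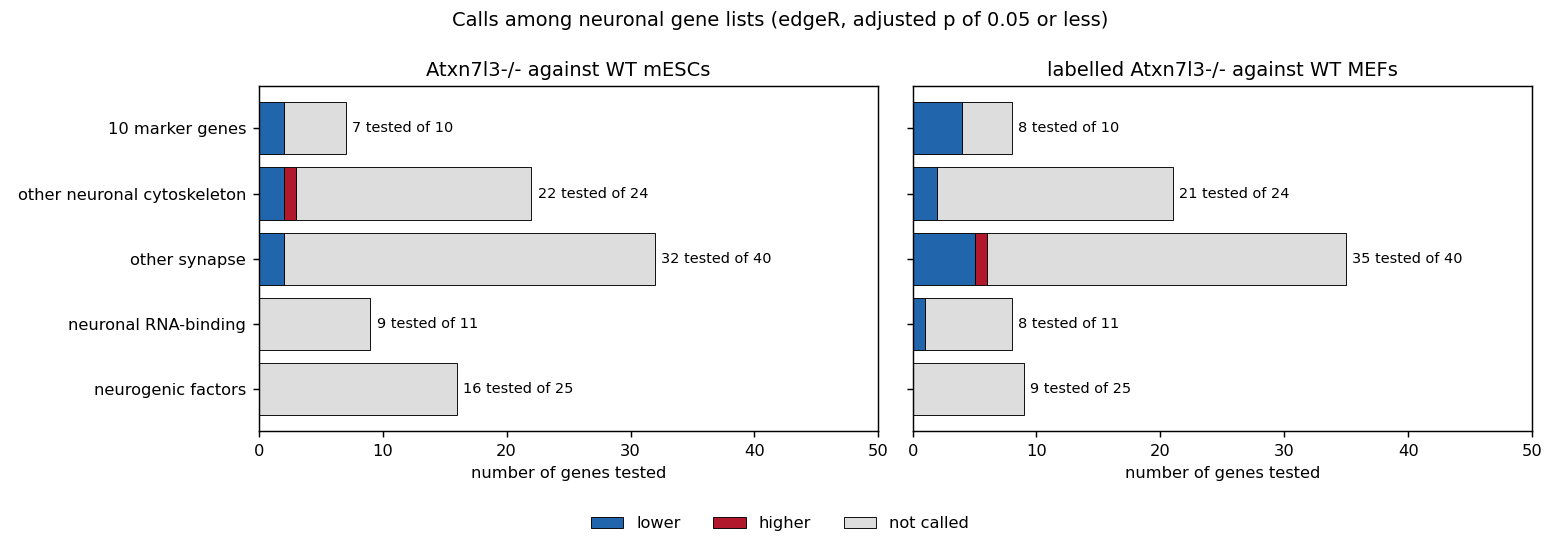
Bars give the number of genes tested in each neuronal list, split into those lower, higher and not called by edgeR, for mESCs and MEFs, with the number listed beside each bar. Most tested genes of the wider lists were not called in either cell type, the 4 wider lists together having 1 higher and 4 lower in mESCs and 1 higher and 8 lower in MEFs.

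Rest, which encodes the repressor of many neuronal genes, lay at 245 and 334 CPM in WT mESCs and at 126, 149 and 161 CPM in the Atxn7l3-/- lines, lower by −0.94 ± 0.21 (edgeR adjusted p = 0.0411). Its cofactor Rcor2 was lower there too (−1.42 ± 0.22, edgeR adjusted p = 0.0231), and edgeR made no other call among the 9 genes of the REST complex, of which 6 had an unadjusted p under 0.05 and 5 were called lower by DESeq2. In MEFs Rest lay at 104, 60.6 and 87.0 CPM in WT and at 113, 115 and 103 CPM in the libraries labelled Atxn7l3-/- (0.38 ± 0.24, edgeR adjusted p = 0.306), and none of the 9 was called by edgeR or DESeq2, with 0 at an unadjusted p under 0.05. The difference between the changes of Rest was 1.39 ± 0.33 (edgeR adjusted p = 0.0283), which was 1.49 with an adjusted p of 0.0537 with the replicate number as a block.

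Markers of other cell types also moved between the MEF groups, and their part in the neuronal values was not tested. The summed level of the 12 neural progenitor genes lay between 149 and 485 CPM in WT MEFs and between 19.0 and 76.7 CPM in the libraries labelled Atxn7l3-/-, where Hes5, Olig2 and Nkx2-2 were at 0 (Hes5 and Dbx1 were at 0 in WT). Of the 6 tested, Fabp7 (−3.61 ± 0.74, edgeR adjusted p = 0.0362) and Msi1 (−2.37 ± 0.58, edgeR adjusted p = 0.0498) were lower, where 4.39% of all genes were called lower. With the replicate number as a block 3 were lower, Fabp7, Pax6 and Zic1 but not Msi1, and DESeq2 called 5 lower. The 10 neural crest and glial genes summed to between 60.2 and 233 CPM in WT MEFs and between 155 and 271 CPM in the others, and 6 of them were lower and 1 higher, where 4.39% of all genes were called lower and 5.01% higher. Sox10, a transcription factor of the neural crest, lay at 7.34, 4.97 and 27.0 CPM in WT and at 0.0528, 0 and 0.0898 CPM in the libraries labelled Atxn7l3-/-, and Foxd3 was at 0 in all 3 of these. Mbp, a myelin protein gene, went up to 231, 262 and 151 CPM from 7.22, 2.81 and 3.71 CPM (5.52 ± 0.48, edgeR adjusted p = 0.00594), and it made up most of that sum. Genes that mark transmitter types were low throughout, with the 9 of 10 listed genes that are in the tables summing to between 1.37 and 2.77 CPM in WT MEFs and between 0.843 and 2.01 CPM in the others, where Gad1, Slc32a1, Dbh and Slc6a5 were at 0.

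Of the lists without a neural role, the 8 epithelial and mesothelial genes summed to between 14.9 and 38.0 CPM in WT MEFs and between 2514 and 3713 CPM in the libraries labelled Atxn7l3-/-. Upk3b, at 1711 to 2293 CPM, and Msln, at 478 to 1190 CPM, made up most of the second sum. Of the 7 tested, Upk3b (7.76 ± 0.80), Msln (7.67 ± 0.68), Wt1 (6.70 ± 0.60) and Krt18 (5.49 ± 0.85) were higher (edgeR adjusted p from 0.00594 to 0.0189), where 5.01% of all genes were called higher. Krt8 (2.80 ± 1.39), Krt19 (−0.37 ± 0.68) and Cdh1 (−1.58 ± 0.83) were not called, and Epcam was at 0.102 CPM or less in the libraries labelled Atxn7l3-/-. The 8 striated muscle genes summed to between 60.6 and 151 CPM in WT and between 30.4 and 84.1 CPM in the others. Of the 6 tested, Myh3, Actn2 and Acta1 were lower and 0 higher, where edgeR called 4.39% of all genes lower. Tnnt2 was not called (1.18 ± 0.52, edgeR adjusted p = 0.170). It ran from 12.1 to 21.6 CPM in WT and from 16.0 to 70.1 CPM in the others. No call was made by edgeR among the 11 fibroblast, 10 macrophage or 8 endothelial genes, of which 3, 1 and 2 had an unadjusted p under 0.05 and 2, 1 and 2 were called by DESeq2. With the block, Dcn and Pdgfra of the fibroblast genes were higher and Kdr of the endothelial genes was lower. The fibroblast sums of the libraries labelled Atxn7l3-/- (19974 to 27739 CPM) lay within the WT range, but single genes of that list moved both ways. Postn ran from 401 to 4379 CPM in WT and from 2.43 to 174 CPM in the others. Dcn ran from 25.3 to 382 CPM in WT and from 711 to 2440 CPM in the others. The macrophage sums ran from 608 to 1225 CPM in WT and from 855 to 6288 CPM in the others. In mESCs the 11 fibroblast genes summed to 59.5 and 169 CPM in the WT lines and to between 317 and 451 CPM in the Atxn7l3-/- lines, and 2 of the 10 tested, Col1a1 (2.54 ± 0.59) and Postn (3.28 ± 0.73), were higher (edgeR adjusted p = 0.0469 and 0.0420), where Tubb3 and Nefl were lower. The part of these genes in the mESC values was not tested.

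**Figure D5:**
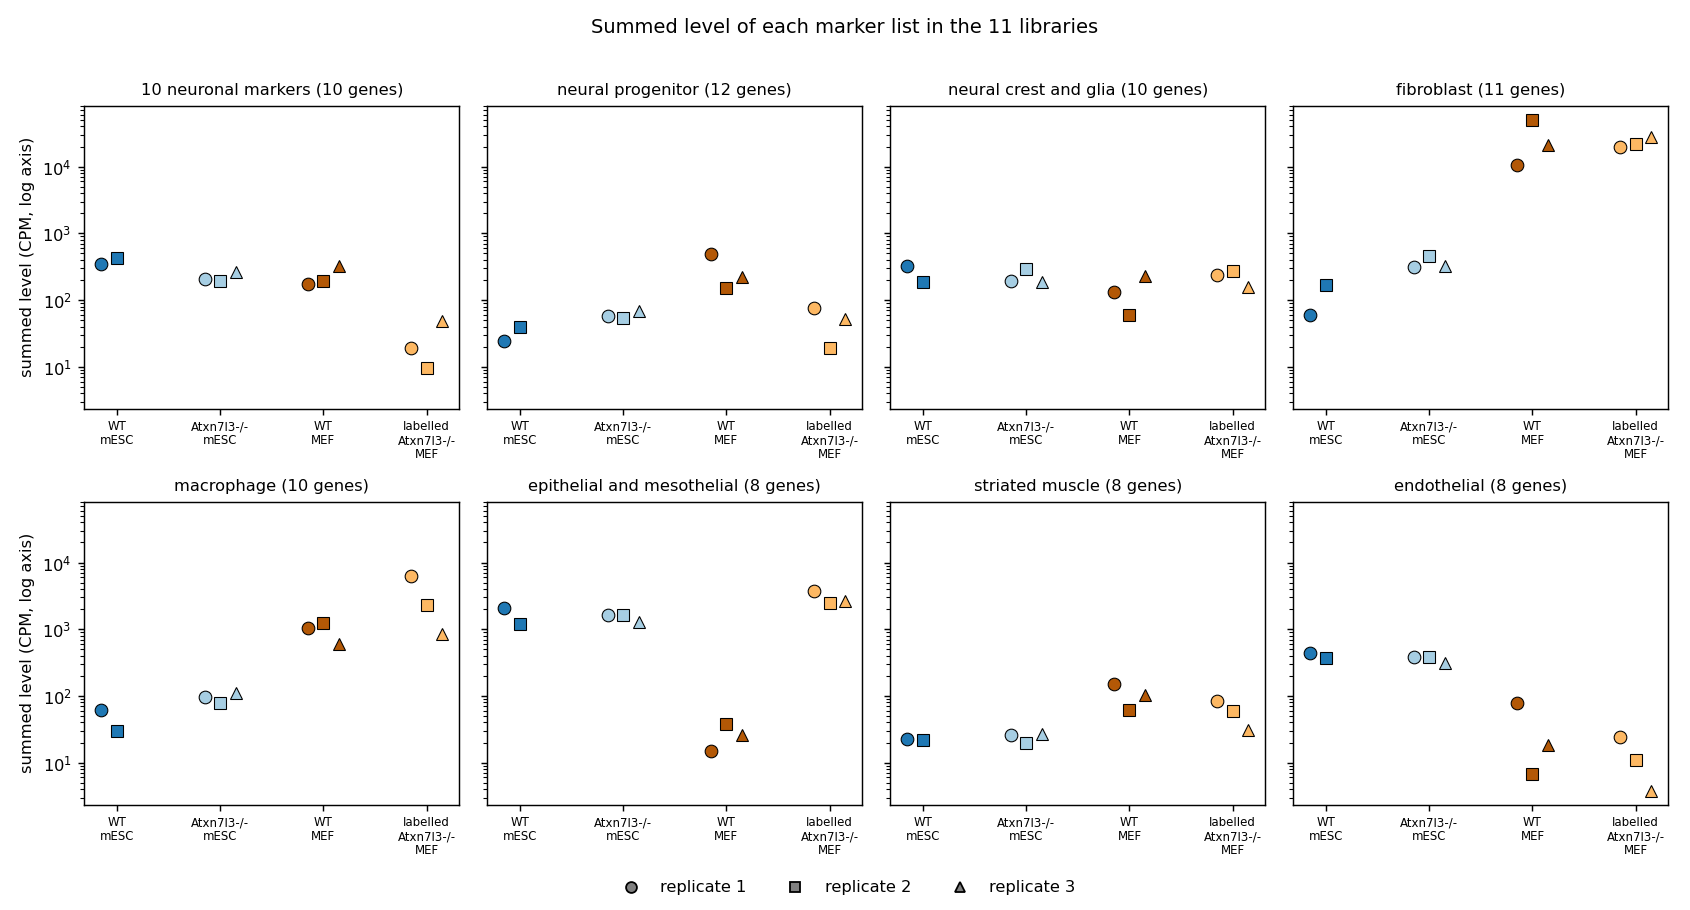
Each panel gives the summed level of 1 marker list (CPM, log axis) in the 11 libraries by group, symbols giving the replicate. The sum of the 10 neuronal markers is lower in the 3 MEF libraries labelled Atxn7l3-/- (9.73 to 47.8 CPM) than in the 3 WT MEF libraries (172 to 328 CPM), the epithelial and mesothelial sum is higher, and the fibroblast sums overlap.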

How the data were processed

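The authors prepared stranded poly(A)+ libraries with the TruSeq kit, trimmed reads with cutadapt 1.10, mapped them to mm10 with STAR 2.5.3a and, per the submitters' processing notes, used HTSeq 0.6.1p1 and DESeq2 1.16.1. They deposited 1 table per cell type with raw counts per Ensembl gene, which were used here, and with DESeq2-normalized signal (also per kb), fold changes and p-values, which were not used. The use of strand in counting and the gene annotation release are not given in the sources used here. Counts of 31518 genes in mESCs and 29450 in MEFs are listed, 26398 of them in both, and no gene listed for MEFs is without a count. For fits of all 11 libraries they were joined by gene ID, with 0 where a table does not list a gene.

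Counts were filtered with filterByExpr, normalized by TMM and tested with the quasi-likelihood test of edgeR 4.0.16 in R 4.3.3, with Benjamini-Hochberg adjustment over all genes tested and calls at 0.05 or less. The SE is the log2 fold change divided by the root of F. Each cell type was fitted separately. The contrast of WT cells and the interaction used all 11 libraries. Counting intervals are exact, at 95%, and cover counting error only. Lengths are medians of transcripts from the deposited tables, positions and overlaps come from GENCODE M21, and promoters from RefSeq (GRCm38.p6). Named genes were the 10 markers, Atxn7l3, Rest, up to 3 genes per list and direction with the largest change among calls, and the 5 most alike genes. A few further genes were named, such as all 4 epithelial and mesothelial genes called higher in MEFs. The genes and lists were chosen with earlier results of these data known. Alternatives were RLE and upper-quartile normalization, other filters (none, or 10 counts in every library), DESeq2 1.42.0, a replicate block, GC correction (lowess span 0.3), joint or separate fits, and leaving out each library. The labels number replicates within each group. Between same-numbered WT and Atxn7l3-/- MEF libraries, deviations from group means correlated with r of 0.161 or more in all 3 pairs (mean 0.291). Deviations within a group sum to 0, so the mean for differing numbers (−0.146) is no separate evidence. These are correlations across genes, and genes are not independent. The number was used as a block only in an alternative fit, and a pairing of the MEF cultures was not shown. The methods describe separate lines and embryos. The fits were tested on simulated data with known changes. Those changes were set only in genes above a mean level and were smaller than those of Nefl and Dcx in MEFs. Falls to near 0 were therefore not covered.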

Additional observations from a re-analysis of the deposited data

Results flagged for a closer look

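The changes of 5 named genes differed between MEFs and mESCs by the interaction test of edgeR over 20063 genes. The difference, MEF change minus mESC change on the log2 scale, was −3.00 for Map2, −6.24 for Stmn2 and −6.85 for Nefl, each lower in all 3 MEF libraries labelled Atxn7l3-/- than in all 3 WT MEF libraries. For Rest it was 1.39, which was not called with the replicate number as a block (edgeR adjusted p = 0.0537). For Atxn7l3 itself it was 5.97. Atxn7l3 went from 196 and 202 CPM to between 0.831 and 3.33 CPM in mESCs. In MEFs it went from between 86.4 and 117 CPM to between 55.4 and 73.3 CPM.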

How the results depend on the processing

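Beside the 41 values as reported, 629 were recomputed. Of these, 563 kept their direction and their side of the threshold (or, for counts, stayed within 1.5 times), 31 lost a call, 13 gained one, 12 counts moved by more and 10 changed sign. The number of the 10 genes called in mESCs (2) was 0 in 1 fit of all 11 libraries and between 0 and 2 with 1 library left out. In MEFs (4) it was 1 of only 2 genes tested when 10 counts were required in every library and between 2 and 4 with 1 library left out. For the interaction (3) these values were 1 of 2 and between 1 and 4, and for WT MEFs against WT mESCs (7) they were 1 of 2 and between 3 and 7. The filter of 10 counts in every library removes the genes that are near 0 in a group, and leaving out libraries lowers the number of samples. Uncalled values changed sign: Map2 in mESCs lay between −0.75 and 0.53 with 1 library left out, Elavl3 in mESCs between −1.23 and 0.75, the interaction of Tubb3 between −2.47 and 0.65, and that of Syt1 between −2.82 and 2.80. In a fit with the replicate number as a block, Elavl3 in mESCs was −1.20 and the 2 calls there stayed at Tubb3 and Nefl. Same-numbered mESC libraries did not correlate (mean r = −0.082 over 2 pairs), so these share only a number. The block added the call of Syt1 in MEFs and changed no other call of a marker against WT or in the interaction, and it gave no usable estimate of Dcx in WT MEFs against WT mESCs. DESeq2 also called Syt1 in MEFs (adjusted p = 0.000401), and Atxn7l3 there (0.0227). Over all genes, edgeR called 1238 in mESCs and DESeq2 3436, and 1501 and 3936 in MEFs, 2108 and 4280 for the interaction. The number called by edgeR in mESCs was 464 in 1 fit of all 11 libraries, 2995 without the filter and 3890 in the libraries with Y-linked counts, a fit with 1 Atxn7l3-/- library. In MEFs it was 846 with 10 counts in every library and 3557 in 1 fit, and for the interaction 1268 with the block. Between WT cells it was 6455 with 10 counts in every library against 11123. Without the filter Syt1 was also called in mESCs, and upper-quartile normalization also called Elavl4 between WT cells (adjusted p = 0.04947). Upper-quartile normalization moved the median of all genes by −0.11 in MEFs and by −0.12 between WT cells, and GC correction by 0.11 in MEFs, with no change in which markers were called in MEFs. Depth limits Dcx and Snap25 in mESCs and Elavl3 and Snap25 in MEFs, where most libraries held 3 counts or fewer.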
